A study of Homo sapiens with 3 samples.

Results

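A small set of cells in chambered cardiac organoids (CCOs) carried SFRP2, SOX2, TFAP2A or POU5F1, genes that are low in most of the organoid. They were chosen on measured values. A cell was a member when its unique molecular identifiers (UMIs, each marking 1 captured mRNA molecule) for these 4 genes summed to 4 or more, when it had no FOXA2 UMI, and when TNNT2, MYH6, MYL7 and TTN together made up less than 0.3% of its UMIs. Of the 6242 kept cells of D8 and D14, 285 were members, with 184 of 2657 cells at D8 and 101 of 3585 at D14. This is 6.93% of kept D8 cells (95% exact binomial interval 5.99 to 7.96) and 2.82% of kept D14 cells (2.30 to 3.41). The comparison groups were the FOXA2-positive cells of the same day, 251 at D8 and 193 at D14, and the other kept cells, 2222 and 3291. At D21, 2 of 1946 kept cells met the same limits, both through SFRP2 alone with 5 and 16 UMIs.

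The CCOs were made from H7, an established human embryonic stem cell line. All groups shared 1 culture history: the GSK inhibitor CHIR99021 and then the WNT secretion inhibitor IWP-2 in a monolayer, dissociation and re-aggregation in Matrigel on day 7, and a growth medium that held Wnt-3A, EDN1, FGF-2, EGF, Cardiotrophin-1 and Thrombin until day 14. No treated or mutant group was used, and the organoids of a day were profiled in 1 Chromium library. Day and library therefore cannot be told apart, no test was possible, and every interval below is a 95% interval that covers counting error only.

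SFRP2 is a secreted modulator of WNT signalling, SOX2 and POU5F1 (OCT4) are transcription factors of pluripotent cells, SOX2 continues in the neural plate, and TFAP2A marks surface ectoderm, the neural plate border and amnion. In the embryo the ectoderm is divided along these lines, with neural plate genes such as SIX3, PAX6 and LHX2 in the anterior plate and DLX5, MSX2, GATA3 and TFAP2C in the border and the surface. Cardiac progenitors come from mesoderm and keep few of these genes.

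The sequence of 3 regulatory regions and 5 mature microRNAs is shown, for genes that carry the rule or led the gene contrasts below. Of 6 regions searched, these 3 are the ones that held a match to a motif named next. The regions are the 250 bases before the RefSeq start on GRCh38.p14, printed 5′ to 3′ on the gene's strand. Capitals mark matches, on either strand, to the octamer ATGCAAAT bound by POU factors, the TFAP2 palindrome GCCNNNGGC and the SOX motif AACAATG, and no matches of different motifs overlapped in these 3 regions. SFRP2 (chr4:153789084-153789333, minus strand) held 1 octamer match, SOX2 (chr3:181711675-181711924, plus strand) held 1 TFAP2 match, and MIR205HG (chr1:209428570-209428819, plus strand) held 1 SOX match.
SFRP2: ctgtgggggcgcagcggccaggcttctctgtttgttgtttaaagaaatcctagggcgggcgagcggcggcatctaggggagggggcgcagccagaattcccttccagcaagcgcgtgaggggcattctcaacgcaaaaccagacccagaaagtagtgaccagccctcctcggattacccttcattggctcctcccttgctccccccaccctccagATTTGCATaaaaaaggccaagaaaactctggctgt
SOX2: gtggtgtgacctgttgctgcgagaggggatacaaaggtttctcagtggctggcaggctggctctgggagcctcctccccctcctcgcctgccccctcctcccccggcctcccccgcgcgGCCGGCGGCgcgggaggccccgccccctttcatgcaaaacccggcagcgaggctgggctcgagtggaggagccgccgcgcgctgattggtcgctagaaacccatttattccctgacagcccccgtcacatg
MIR205HG: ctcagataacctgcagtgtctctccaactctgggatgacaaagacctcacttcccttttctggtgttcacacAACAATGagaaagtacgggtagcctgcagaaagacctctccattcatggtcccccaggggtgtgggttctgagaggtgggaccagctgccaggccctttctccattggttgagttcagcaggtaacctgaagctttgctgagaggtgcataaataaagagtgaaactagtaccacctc
Of the 27305 promoters of this length searched, 1.66% held the octamer, 19.7% the TFAP2 palindrome and 2.93% the SOX motif. The regions of TFAP2A, CLDN10 and GABRP held none of the 3 motifs and are not printed, and POU5F1 had no entry. Promoters were found for 18 of the 30 genes that were at least 4-fold higher in D8 members than in other cells, and 4 of them (22.2%) held the TFAP2 palindrome. For D14 it was 5 of 21 promoters (23.8%). The octamer was in 0 of the 18 and 0 of the 21, and the SOX motif in 0 of the 18 and 1 of the 21 (4.76%). A match is a stretch of letters and was not measured as a bound site.

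MIR302B and MIR205HG are rows of the gene table that counted long transcripts, and mature microRNAs were not measured. The mature products encoded at these loci are printed with the seed, bases 2 to 8, in capitals. The 4 miR-302 arms share 1 seed, which 12 RefSeq mature microRNAs have, and the seed of miR-205-5p occurs once.
hsa-miR-302a-3p: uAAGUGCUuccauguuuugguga
hsa-miR-302b-3p: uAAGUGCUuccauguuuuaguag
hsa-miR-302c-3p: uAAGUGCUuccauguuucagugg
hsa-miR-302d-3p: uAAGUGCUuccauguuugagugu
hsa-miR-205-5p: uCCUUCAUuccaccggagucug
The miR-302 arms lie on the minus strand of chr4 between 112648006 and 112648511, and miR-205-5p at chr1:209432166-209432187 on the plus strand, both on GRCh38.p14.

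The members were deeper than the cells around them, with a median of 23415 UMIs at D8 and 20225 at D14 against 14354 and 12003 in other cells. FOXA2-positive cells were close to the members, at 23479 and 21660. The median mitochondrial share was 1.75% and 1.89% in members and 2.17% and 3.25% in other cells. When every cell was thinned to 4000 UMIs and 2 or more rule UMIs were asked for, 128 D8 and 57 D14 cells were found, of which 124 and 46 were members. Over all columns 136 barcode sequences occurred in more than 1 library, and 4 members carried one. Without such barcodes the shares were 6.92% and 2.87%.

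The rule genes are described here without support drawn from them. At D8, SOX2 had a UMI in 158 of 184 members, SFRP2 in 145, TFAP2A in 111 and POU5F1 in 88. At D14 the order was different, with TFAP2A in 93 of 101 members, SOX2 in 36, POU5F1 in 24 and SFRP2 in 22. All 4 genes were found together in 38 D8 members (20.7%) and 7 D14 members (6.93%). A single rule gene brought in 15 D8 members and 52 D14 members, and 47 of those 52 had TFAP2A alone. SFRP2 and SOX2 were thus the most frequent of the 4 at D8 and TFAP2A at D14.

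The per-cell spread was wide. SFRP2 ran from 0 to 173 UMIs in a D8 member with a median of 3, and POU5F1 from 0 to 117 with a median of 0. At D14 the median of TFAP2A was 5 UMIs and the highest cell had 15, whereas 1 cell held 31.3% of all POU5F1 UMIs and 1 cell 28.7% of all SFRP2 UMIs. POU5F1 has near-identical processed copies in the genome, so its counts are uncertain. The rule sum had a median of 13 UMIs at D8 and 6 at D14. At the edge of the rule, 12 D8 and 18 D14 members had 4 UMIs, and 15 and 29 cells that met the other limits had 3.

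With the 9 rule genes left out, the members still lay next to each other at D8 and less so at D14. Among the 15 nearest neighbours of a cell in 20 principal components, a D8 member had on average 82.6% members, where members are 6.93% of cells. A D14 member had 36.6%, where members are 2.82%. The rest of the neighbours of D14 members were other kept cells, 58.9% of all neighbours, and FOXA2-positive cells, 4.55%.

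The label calls these cells epithelial, and the data bear this out for a portion of them. EPCAM, an adhesion molecule of epithelia, had 2 or more UMIs in 85 of 184 D8 members (46.2%, interval 38.8 to 53.7) and in 52 of 101 D14 members (51.5%, 41.3 to 61.6). No EPCAM UMI was found in 73 D8 and 43 D14 members. In FOXA2-positive cells 85.7% and 87.0% had 2 or more, and in other cells 9.95% and 3.95%. The cells are therefore named here by the rule, and the split at 2 EPCAM UMIs was chosen after its values were seen.

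**Figure D1:**
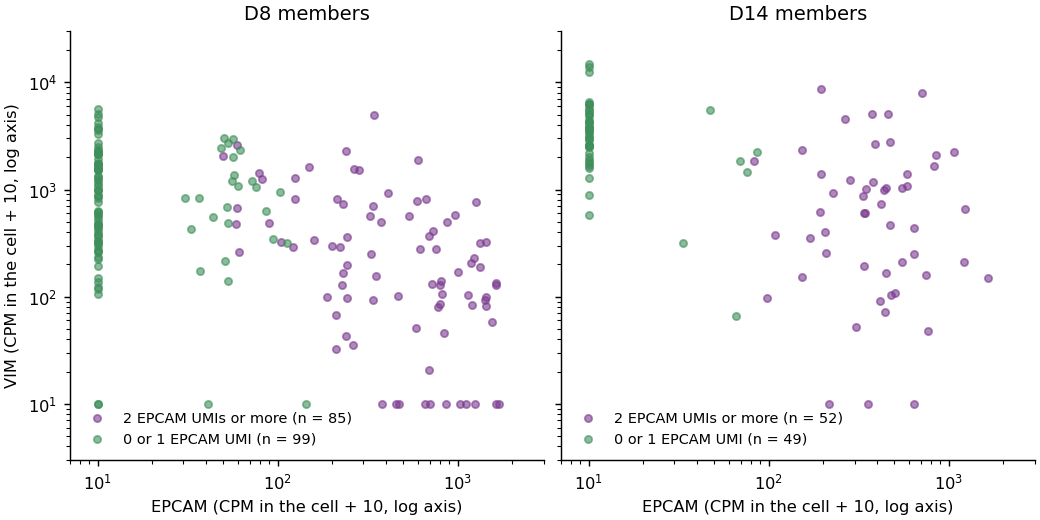
EPCAM against VIM in each member, both in counts per 1000000 UMIs of the cell (CPM) plus 10 on log axes, at D8 (left) and D14 (right). Members with 2 or more EPCAM UMIs (85 and 52) spread to the right, and members with 0 or 1 (99 and 49) sit at the left and hold the highest VIM value of each day.

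Levels below are UMIs of a gene summed over the cells of a group, expressed as counts per 1000000 summed UMIs (CPM). A gene is called 4-fold higher or lower after 10 CPM was added to both levels, and it had to reach 20 CPM in either group. With 10 CPM added, a gene under 30 CPM in the higher group cannot be called even against a level of 0, so a list gene that was not called may still differ. These calls carry no test. At D8, 30 of 5973 genes (0.502%) were at least 4-fold higher in members than in other cells and 60 (1.00%) at least 4-fold lower. At D14 it was 27 of 6413 (0.421%) and 80 (1.25%). Against FOXA2-positive cells 15 genes (0.260%) were higher and 51 (0.883%) lower at D8, and 19 (0.322%) and 38 (0.644%) at D14. The median log2 ratio of all tested genes in members over other cells was -0.07 at D8 and -0.17 at D14.

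Epithelial junction genes stood above other cells on both days. Of 18 epithelial genes 14 reached the minimum at D8, where 6 were at least 4-fold higher, none was lower and the median log2 ratio was 1.70. At D14 it was 7 of 14 with a median of 1.93. CDH1, the adherens junction cadherin, was at 59.4 CPM in D14 members (49.7 to 70.3) and 2.6 in other cells, a 23.0-fold ratio (17.8 to 29.9). At D8 the ratio was 11.3 (9.20 to 13.9). The tight junction gene CLDN4 was at 87.8 and 4.1 CPM at D8 and at 102 and 5.5 at D14.

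Relative to FOXA2-positive cells, the epithelial list had no such offset, with a median log2 ratio of -0.43 at D8 and -0.29 at D14, and CLDN10 was the only 1 of its tested genes past 4-fold on either day. CLDN10, a paracellular channel claudin, was at 173 CPM in D8 members (162 to 185), 29.2 in FOXA2-positive cells and 6.6 in other cells. It was found in 76 of 184 D8 members. At D14 its 90.8 CPM fell to 44.0 without the highest cell, which held 52.7% of its UMIs, against 31.9 CPM in other cells. After thinning, 19.0% of D8 members had a CLDN10 UMI and 5.94% of D14 members, while 9.36% of other D14 cells had one.

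Neural plate genes were read mainly at D8. Of 19 genes in the list 8 reached the minimum at D8, and their median log2 ratio over other cells was 1.79, with SIX3 past 4-fold. SIX3, a factor of the anterior plate, was at 47.7 CPM (41.8 to 54.3) in D8 members and 0.99 in other cells, and had a UMI in 81 of 184 members. SIX6 was at 24.3 CPM and found in 42 members. PAX6 was at 28.4 CPM, also in 42 members, and FEZF1 at 28.4 CPM in 56. These genes were each under 1.0 CPM in other D8 cells. ZIC2 was at 38.4 CPM against 3.0, whereas OTX2, at 51.7 CPM, was at 62.7 in FOXA2-positive cells and 17.1 in other cells. SOX1 had no UMI in any member, which at 3 counts over the group allows up to 0.623 CPM at D8 and 1.33 at D14.

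At D14 only 1 gene of the neural list, NES, reached the minimum against other cells, at 114 CPM in members and 172 in other cells. SIX3 was at 8.9 CPM in 8 members. PAX6 was found in 2 members, and 1 of them held 73.9% of its UMIs. FEZF1 and HESX1 were each found in 2 members.

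Border and surface ectoderm genes were present on both days. Of 18 genes 6 reached the minimum at D8 and MSX2 and DLX5 were past 4-fold, with a list median of 1.58. DLX5 was at 73.1 CPM (65.6 to 81.1) in D8 members, 1.8 in FOXA2-positive cells and 0.90 in other cells, and had a UMI in 92 members. TFAP2C was at 30.1 CPM and GRHL3, a factor of the surface ectoderm, at 21.2, against 3.0 and 0.82 in other cells. GATA3 was less frequent than in FOXA2-positive cells at D8. After thinning it had a UMI in 19.0% of members, 30.7% of FOXA2-positive cells and 8.10% of other cells. The D14 shares were 33.7%, 19.7% and 12.6%. At D14 DLX5 was at 30.1 CPM and WNT6, a ligand of the surface ectoderm, was at 45.6 CPM (37.2 to 55.3) in members and 0.69 in other cells. WNT6 was found in 33 of 101 D14 members and 14 of 184 D8 members. MSX2, a BMP-responsive homeobox gene, was at 115 CPM and 196 CPM in D8 and D14 members and at 17.9 and 49.7 in other cells. It had a UMI in 143 of 184 and 89 of 101 members.

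The keratins of stratified epithelium KRT5, KRT14 and KRT17 had no UMI in any member. TP63, a factor of the same epithelium, had no UMI at D8 and 14 UMIs in 8 members at D14. KRT8 and KRT18, keratins of simple epithelia, were found in 98 or more of the 101 D14 members and were at 1213 and 1653 CPM at D8. Neither was past 4-fold over other cells on either day. At D8 both had a UMI in all 99 members with 0 or 1 EPCAM UMI, at 932 and 1205 CPM. Neural crest genes stayed low, with SOX10 at 5 UMIs at D8 and 1 at D14. Of the 12 listed genes 3 were tested against other cells at D8 and 2 at D14, and none of them was past 4-fold.

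Pluripotency-associated genes were present in part. L1TD1, an RNA-binding protein of pluripotent cells, was at 160 CPM at D8 (149 to 172) and 82.8 at D14 in members, and at 11.3 and 8.5 in other cells. LIN28A, which blocks let-7 maturation, was found in 181 of 184 D8 members at 472 CPM, against 116 in other cells, and was at 57.6 CPM at D14. It also had a UMI in 94.8% of FOXA2-positive D8 cells, and at D14 in 62.7% of them against 44.6% of members, without thinning. NANOG had 5 UMIs over all D8 members and 4 at D14. TDGF1 had 53 UMIs in 18 D8 members. Of 19 listed genes 9 reached the minimum at D8, and L1TD1 was the gene past 4-fold over other cells on both days. Over FOXA2-positive cells no gene of 10 tested at D8 or 5 at D14 was past 4-fold. The median log2 ratios there were 0.57 and 0.25. The germ cell genes DDX4 and DAZL had no UMI in members.

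Genes of the streak, of cardiac mesoderm and of muscle were read next. T, the primitive streak factor, had 2 UMIs at D8 and none at D14, and MSGN1 had none. Of 10 tested cardiac progenitor genes 6 were at least 4-fold lower in D8 members than in other cells, with PDGFRA at 7.1 against 166 CPM and MEF2C at 16.8 against 273. Of the tested cardiomyocyte genes, 6 of 8 were at least 4-fold lower at D8 and 9 of 9 at D14. The rule itself had a limit on 4 muscle genes, so these counts are a description. TNNI1, the slow skeletal troponin I of the early heart, was at 53.1 against 1082 CPM at D8 and 128 against 2534 at D14.

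Against FOXA2-positive cells, 5 of 7 tested endoderm genes were at least 4-fold lower at D8 and 6 of 9 at D14, and the rule had set FOXA2 to 0. PRSS1, a trypsinogen, was at 5.0 against 1036 CPM at D8, TTR at 3.3 against 667 and APOA2 at 0.62 against 380. HHEX, a foregut factor, was at 4.6 against 331. At D14 TTR was at 3.5 against 635 CPM, and SPINK1 at 8.4 against 227. FN1, the matrix protein fibronectin, was low relative to both groups, at 155 CPM in D8 members, 2214 in FOXA2-positive cells and 1341 in other cells. Genes higher in members than in FOXA2-positive cells on both days included MSX2, RARRES2 and MEST. MEST, an imprinted gene of mesoderm and early embryo, was at 388 against 87.6 CPM at D8 and 413 against 99.3 at D14.

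The other lists held few tested genes. Of 21 HOX genes 2 reached the minimum at D8. HOXB2 was at 6.2 CPM in D8 members and 66.8 in other cells, and at 22.1 and 71.9 at D14. Of the germ cell genes 2 were tested against other cells at D8, neither past 4-fold, and 0 reached the minimum at D14. None of the 2 endothelial genes tested on each day was past 4-fold over other cells. The same held for the 10 and 9 tested immediate early and stress genes. In the placode list DLX5 was past 4-fold at D8. COL1A1, COL1A2 and FN1 were at least 4-fold lower at D8 among 10 tested mesenchymal genes, and FN1 at D14.

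The genes that led the D8 contrast with other cells were MIR302B, CLDN10, RARRES2, MT1G, MT1H, L1TD1, CRABP1 and MT1X. MIR302B was at 461 CPM in D8 members (442 to 481) and 20.2 in other cells, a 22.8-fold ratio (21.0 to 24.9), and was at 244 CPM in FOXA2-positive cells. It had a UMI in 132 of 184 members. RARRES2, which encodes the secreted protein chemerin, was at 167 against 9.0 CPM, and CRABP1, a binding protein of retinoic acid, at 266 against 28.0. Metallothioneins, which bind metal ions, were found in 23.4% (MT1H) to 69.6% (MT2A) of D8 members, with MT1X in 54.3% and MT1G in 41.3%, without thinning. They were also frequent in FOXA2-positive D8 cells, with MT1H in 20.7%, MT2A in 71.3%, MT1X in 42.6% and MT1G in 44.2%, without thinning. MT1G was at 1034 CPM in D8 members and 112 in other cells, and at 832 CPM in members without its highest cell. MT1H fell from 223 to 131 CPM without its highest cell.

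At D14 the leading genes were MIR205HG, SPP1, GAL, EPCAM, RAB25, RARRES2 and CLDN4. MIR205HG, the host transcript of miR-205, was at 671 CPM (638 to 706) in D14 members, 187 in FOXA2-positive cells and 30.6 in other cells, and was found in 62 of 101 members. SPP1, the matrix protein osteopontin, was at 284 CPM in members but also at 279 in FOXA2-positive cells, and at 213 in members without its highest cell. GAL, the neuropeptide galanin, was at 330 CPM in 27 members, against 151 in FOXA2-positive cells and 17.0 in other cells. ANXA1, an annexin of epithelia, was at 438 CPM against 82.2. SST, at 239 CPM, rested on 5 members, and 1 of them held 70.7% of its UMIs, so that it was at 70.3 CPM without that cell.

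Genes used as markers of amnion and trophoblast were read in the same cells. GABRP, a GABA receptor subunit, was at 47.8 CPM (39.3 to 57.8) in D14 members, in 20 of 101 cells, and at 1.3 in both comparison groups. At D8 it had 1 UMI. KRT7 was at 37.2 CPM at D14 against 1.3 in other cells, and VTCN1 at 12.4 against 0.78. ISL1 and HAND1, which belong to this list and to the cardiac progenitor list, were at 192 and 152 CPM in D14 members, and at 150 and 214 in other cells. CGA, a hormone subunit made by trophoblast, had 34 UMIs in D8 members and 4 in D14 members, and was at 144 and 28.8 CPM in FOXA2-positive cells. XAGE2 had no UMI in members.

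Shares of cells were compared at a fixed depth of 4000 UMIs. After thinning, MIR302B had a UMI in 45.7% of D8 members (38.3 to 53.1) and in 2.25% of D8 cells with 0.3% or more muscle gene UMIs. These muscle gene cells served as background and had a median depth of 14476 UMIs. Unthinned, the MIR302B shares were 71.7% and 7.77%. DLX5 had a UMI in 20.7% of D8 members and 0.41% of the muscle gene cells, SIX3 in 15.2% and 0.20%, and PAX6 in 10.3% and 0 of 489, which at 3 counts allows a share of up to 0.613%. Unthinned, DLX5 was found in 92 of 184 D8 members, SIX3 in 44.0% and PAX6 in 22.8%. At D14 MIR205HG had a UMI in 50.5% of members and 4.29% of muscle gene cells, with 61.4% and 9.72% unthinned at a median depth of 12218 UMIs in the latter. FOXA2-positive cells had thinned shares of 31.1% for MIR302B at D8 and 30.1% for MIR205HG at D14. Their D8 shares were 0.80% for DLX5, 2.39% for SIX3 and 0.80% for PAX6. MIR205HG at D8 was in 17.9% of members and 21.1% of FOXA2-positive cells. MIR302B at D14 was in 3.96% of members and 3.32% of muscle gene cells.

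The split by EPCAM separated different sets of genes at D8. The 85 members with 2 or more EPCAM UMIs had POU5F1 at 436 CPM, against 27.2 in the 99 with 0 or 1, while SFRP2 was at 152 and 605. HPGD, which breaks down prostaglandins, was at 165 CPM in 43 of the EPCAM members and had 1 UMI in the others. CLDN10 was at 300 and 17.6 CPM, RARRES2 at 292 and 14.3 and L1TD1 at 229 and 75.3. TFAP2C was at 47.1 and 9.2 CPM and GATA3 at 94.2 and 22.6. The neural plate genes went the other way. SIX6 was at 2.3 CPM in the EPCAM members and 51.3 in the others (ratio 0.04, interval 0.02 to 0.10), PAX6 at 6.4 and 55.4, LHX2 at 2.3 and 26.8 and SIX3 at 22.6 and 78.5. CRABP1, DLK1 and CDH6 lay with them, DLK1 at 474 and 2084 CPM.

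LIN28A differed little across this split, at 485 and 454 CPM, a ratio of 1.07 (0.98 to 1.16). MSX2 was at 101 and 133 CPM and OTX2 at 44.5 and 60.5. The separation was not complete per cell. A UMI of PAX6, SIX3, SIX6, LHX2 or FEZF1 was found in 115 of 184 D8 members and a UMI of DLX5, DLX3, GATA3, TFAP2C or GRHL3 in 141, with both in 84 and neither in 12. Both were found in 32 of the 85 EPCAM members and 52 of the 99 others, at unthinned median depths of 27424 and 20974 UMIs. These joint counts were not made in the comparison groups. GATA3 had an unthinned UMI in 47.8% of D8 members, 67.3% of FOXA2-positive and 23.5% of other D8 cells. The rest of its set was rarer in the comparison groups, with TFAP2C the most frequent at 3.19% and 3.92%.

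At D14 the split was between epithelial genes and matrix genes. The 52 EPCAM members all had a MIR205HG UMI, with 1023 CPM against 96.8 in the other 49. GAL was at 529 and 4.7 CPM, CLDN4 at 162 and 4.7, WNT6 at 70.0 and 5.8 and GABRP at 70.0 and 11.7. The other 49 had VIM, the intermediate filament of mesenchyme, at 3621 CPM against 1183 and COL3A1 at 465 against 42.1. SFRP2, a rule gene, was at 264 against 15.0 CPM and had a UMI in 12 of the 49. Most of its UMIs there came from cells with 61, 62 and 71. GATA3 was at 99.3 CPM in the EPCAM members and 107 in the others, a ratio of 0.92 (0.71 to 1.22). ISL1 was at 211 and 161 CPM, a ratio of 1.31 (1.07 to 1.62). TFAP2A, by which many of these cells were chosen, was at 217 and 303 CPM. ENG, a TGF-beta co-receptor, was at 7.9 and 227 CPM and was found in 22 of the 49. The SST UMIs of the 49 came from 3 cells and their DKK1 UMIs from 12.

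The members also differed by which rule gene they carried, which is given as a description. At D8 the 88 members with a POU5F1 UMI had EPCAM at 542 CPM, against 65.9 in the 96 without one. SPP1 was at 226 and 1.8 CPM and CRABP1 at 75.6 and 493 across the same split. The 111 D8 members with a TFAP2A UMI had DLX5 at 105 CPM, against 16.3 in the 73 without. HAPLN1, a link protein of the hyaluronan matrix, was at 180 and 38.9 CPM. At D14 all 86 MIR302B UMIs were in 8 of the 24 members with a POU5F1 UMI, and 1 cell held 47.7% of them.

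The 49 D14 members with 0 or 1 EPCAM UMI also lay among other cells. On average 85.9% of their 15 neighbours were other kept cells and 13.6% were members, whereas the 52 EPCAM members had 58.2% members. At D8 the figures were 78.0% for the members with 0 or 1 EPCAM UMI and 88.0% for the EPCAM members. Relative to other cells, 11 of 6549 genes were at least 4-fold higher in the 49, against 44 of 6423 in the 52. The median depth was 16829 UMIs in the 49 and 24030 in the 52, and the part of depth in this was not tested.

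Between the days, 43 of 5864 genes (0.733%) were at least 4-fold higher in D14 members than in D8 members and 20 (0.341%) at least 4-fold lower. IGFBP7 was at 7.1 CPM at D8 and 1065 at D14, COL3A1 at 0.83 and 203, B2M at 142 and 1938 and IGF2 at 31.3 and 347. The other cells had each of these at higher levels at D14 than at D8 as well, with IGFBP7 at 142 and 760 CPM. GAL went from 21.8 to 330 CPM in members and from 90.4 to 17.0 in other cells. TGFBI was at 5.2 and 150 CPM in members and at 14.9 and 38.4 in other cells. The cells that met the rule also differed between the days, with 47 of 101 D14 members brought in by TFAP2A alone. COL3A1 was higher in the 49 D14 members with 0 or 1 EPCAM UMI than in the 52 EPCAM members. A change in which cells met the rule and a change in level cannot be told apart in the values between days.

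The lower genes at D14 were led by metallothioneins, with MT1G at 1034 CPM at D8 and no UMI at D14, where 3 counts over the group would be 1.33 CPM. MIR302B went from 461 to 38.1 CPM, CNTNAP2 from 310 to 43.4 and LIN28A from 472 to 57.6. In other cells MT1G was at 112 and 2.6 CPM and LIN28A at 116 and 12.7. Among the lists, 4 of 7 tested amnion and trophoblast genes were at least 4-fold higher in D14 members. It was 3 of 6 for cardiac progenitor genes, 3 of 10 for mesenchymal genes and 1 of 6 for cardiomyocyte genes. The 4 amnion and trophoblast genes were GABRP, ISL1, HAND1 and BAMBI. ISL1 and HAND1 were called in both the amnion and the cardiac progenitor list, and BAMBI is also in the BMP list. After thinning, HAND1 rose from 15.9% of other cells at D8 to 41.5% at D14, and BAMBI from 40.4% to 80.1%. In D14 members HAND1 was in 37.6% and BAMBI in 78.2%. In other cells ISL1 was in 30.1% and 37.3%, and GABRP in 0.09% and 0.27%. No epithelial gene was past 4-fold in either direction. The 8 tested neural plate genes had a median log2 ratio of -1.50, against -0.04 over all tested genes, and SIX6, PAX6, FEZF1 and HESX1 were each under the level at D8 that can be called. FEZF1 had a UMI in 30.4% of D8 members and 1.98% of D14 members, and SIX6 in 22.8% and 2.97%, without thinning.

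Signalling genes were read against other cells. No gene of the FGF, BMP or Notch lists was past 4-fold over other cells on either day. In the WNT list WNT6 was past 4-fold at D14 and none at D8. The BMP targets ID1 and ID3 were at 1887 and 1451 CPM in D8 members and at 927 and 684 in other cells. The BMP antagonist NOG was at 23.5 CPM at D8 against 8.0, and FST at 76.6 against 14.1. DKK1, a WNT antagonist, was at 69.1 CPM in D14 members against 10.0, in 16 members, of which 1 held 33.3% of its UMIs. Cell division genes had a median log2 ratio over other cells of 0.79 at D8 and 0.75 at D14, with none of the tested genes past 4-fold, and of 0.14 and 0.61 over FOXA2-positive cells.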

How the data were processed

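The authors deposited raw UMI counts of 32738 genes in each cell barcode, in 1 merged table without normalization. Column names end in the day of the library. The submitters' processing notes name Cell Ranger, Seurat 3.2.1 and the build hg19, so no gene coordinates of the counts are given, and RefSeq sequences on GRCh38.p14 were used for promoters and microRNAs. As in the study's methods, a barcode was kept with 2001 to 7499 genes and with less than 10% of its UMIs in mitochondrial genes, of which the table has 13. The paper reports the same numbers of cells for D14 and D21, whereas the 2657 kept cells of D8 are more than it reports. The members and the gene lists were chosen with earlier results of these data known. The 21 lists hold 295 genes of the table, and 1 listed gene is not analysed here.

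UMIs were summed per group and expressed as CPM with exact Poisson 95% intervals. Ratios have exact conditional intervals and shares exact Clopper-Pearson intervals. The kept cells of a group held 2257374 to 43477694 summed UMIs. PCR duplicates are collapsed by UMIs, and intervals cover counting error only. Genes named are the 15 highest and 10 lowest ratios over other cells at 100 CPM or more in the higher group, the 10 each way over FOXA2-positive cells and between days, the rule genes and list genes. Splits by EPCAM name the 8 genes with the largest ratio each way, list genes and genes named elsewhere. Thinning to 4000 UMIs used a fixed seed. Neighbours were found in 20 principal components of 2000 variable genes per day, without the rule genes. Doublets were scored with Scrublet in scanpy 1.11.5 and kept. TMM factors came from edgeR 4.0.16 in R 4.3.3. Python 3.11.15, numpy 2.4.6, scipy 1.17.1, pandas 2.3.3, scikit-learn 1.9.0 and matplotlib 3.10.9 were used. The ratios and intervals were tested on simulated data. Alternatives covered the rule, the filters on cells and genes, the added CPM, scaling, doublets, shared barcodes and single high cells.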

Additional observations from a re-analysis of the deposited data

Results flagged for a closer look

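Barcodes outside the filters on genes and mitochondrial share were not used in the comparisons, and 13 of 906 such D8 barcodes (1.43%) met the limits on the rule genes, a signal in barcodes that no comparison used. Among kept D8 cells the share was 6.93%. Of these, 9 had too few genes, 4 too many and 2 a mitochondrial share of 10% or more. At D14 it was 1 of 1030 (0.0971%).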

How the results depend on the processing

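No paired analysis was possible because each day has 1 library, and leaving out a replicate was not possible for the same reason. Of 164 shares and counts under 20 alternatives to the settings and to the EPCAM limit, 139 stayed within their interval or within 1.5 times the value given. The share of members was 4.82% at D8 and 1.59% at D14 with the thinned rule. At D14 it was 3.63% with 3 rule UMIs or more, 1.76% with 6 or more and 3.55% with a mitochondrial limit of 5%. The share of D14 members with 2 EPCAM UMIs or more was 40.4% with the thinned rule, and at D8 60.3% had 1 EPCAM UMI or more. The counts of genes depended on the CPM added. With 1 CPM added, 68 genes were 4-fold higher in members than in other cells at D8 and 63 at D14, 40 and 65 against FOXA2-positive cells, 48 in D8 over D14 members and 145 in D14 over D8 members. With 50 CPM added these counts were 5 and 5, 1 and 2, 8 and 13. With a minimum of 100 CPM they were 16 and 12, 7 and 7, and 23 in D14 over D8 members. Without each gene's highest member, 10 genes were 4-fold higher at D14 than in FOXA2-positive cells, in place of 19. All 850 values of the 50 genes compared with other cells kept their sign, and 236 moved outside their counting interval. The 50 were named for the highest and lowest ratios of this same contrast, so their kept sign gives little support. TMM scaling raised the log2 ratios of members over other cells by 0.12 at D8 and 0.14 at D14, and median-of-ratios scaling by 0.18 and 0.21. The alternatives on shared barcodes, single high cells and EPCAM limits were chosen after seeing the data. Of members, 10.9% at D8 and 10.9% at D14 were among the 10% of cells with the highest doublet scores.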
